A study of Mus musculus with 5 samples.

Results

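The interleukin genes and the genes of their receptor chains were examined in pancreatic leukocytes of 5 female NOD mice. Members were taken by name, as every gene whose single symbol in the platform annotation begins with Il and a digit, apart from 4 symbols that are not analysed here. This gave 72 of the 19938 genes with a probe set of their own. By name and known product, 34 were counted as cytokines, 34 as receptor chains and 3 as antagonists or binding proteins. Il22ra2, which encodes a secreted IL-22 binding protein, was counted with the receptor chains. The remaining 1, Il1bos, is an antisense transcript at the Il1b locus, equal at 3.19 log2 on all 5 arrays.

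All mice were WT NOD, female and 10 weeks old, with no treatment named in the labels. NOD is a strain that develops autoimmune diabetes spontaneously. CD45+ cells were sorted by FACS from the dispersed pancreas, and each mouse was hybridised to 1 array. The labels give each mouse an MRI T2 value, a measure of how fast the transverse signal of the imaged pancreas decays, which was 35.3, 35.24, 32.77, 30.02 and 28.98 ms in mice 1 to 5. The question was which transcripts of the infiltrate varied with the MRI signal, and the labels give no other grouping. The labels do not say which T2 values go with heavier infiltration, so high and low T2 carry no such reading here. Ptprc, the gene of CD45, had a log2 intensity of 11.06 ± 0.10 (SD, n = 5). The mean log2 levels of fibroblast, ductal and islet endocrine markers were at most 4.50 on every array, while 5 of the 8 acinar markers measured passed a mean of 6. In a mixed sort, fewer cells of a type and less RNA per cell cannot be told apart.

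Interleukins are secreted proteins through which leukocytes instruct each other. Most receptors pair a chain that recognises the cytokine with a chain shared between several cytokines, such as gp130, encoded by Il6st, or the second IL-10 receptor chain, encoded by Il10rb. Cytokine genes are typically silent until a cell is activated and are then transcribed briefly, whereas receptor chains mark the identity of a cell and are kept on its surface.

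Few cytokine genes were bright on the arrays, and many receptor genes were. A mean log2 intensity of at least 6 was reached by 2 of the 34 cytokines (5.88%), by 14 of the 34 receptor chains (41.2%) and by none of the 3 antagonists and binding proteins. The same level was reached by 33.1% of all genes. On single arrays the share lay between 2.94% and 5.88% for cytokines and between 41.2% and 47.1% for receptor chains, so the ranges did not overlap. The median gene had a mean log2 of 3.58 among cytokines, 5.72 among receptor chains and 4.87 among all genes. Probe sets differ in how strongly they bind their target, so these shares describe signal on the array and not amounts of RNA. With a level of 5 the shares were 14.7% and 58.8%, and with a level of 7 they were 2.94% and 29.4%.

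**Figure D1:**
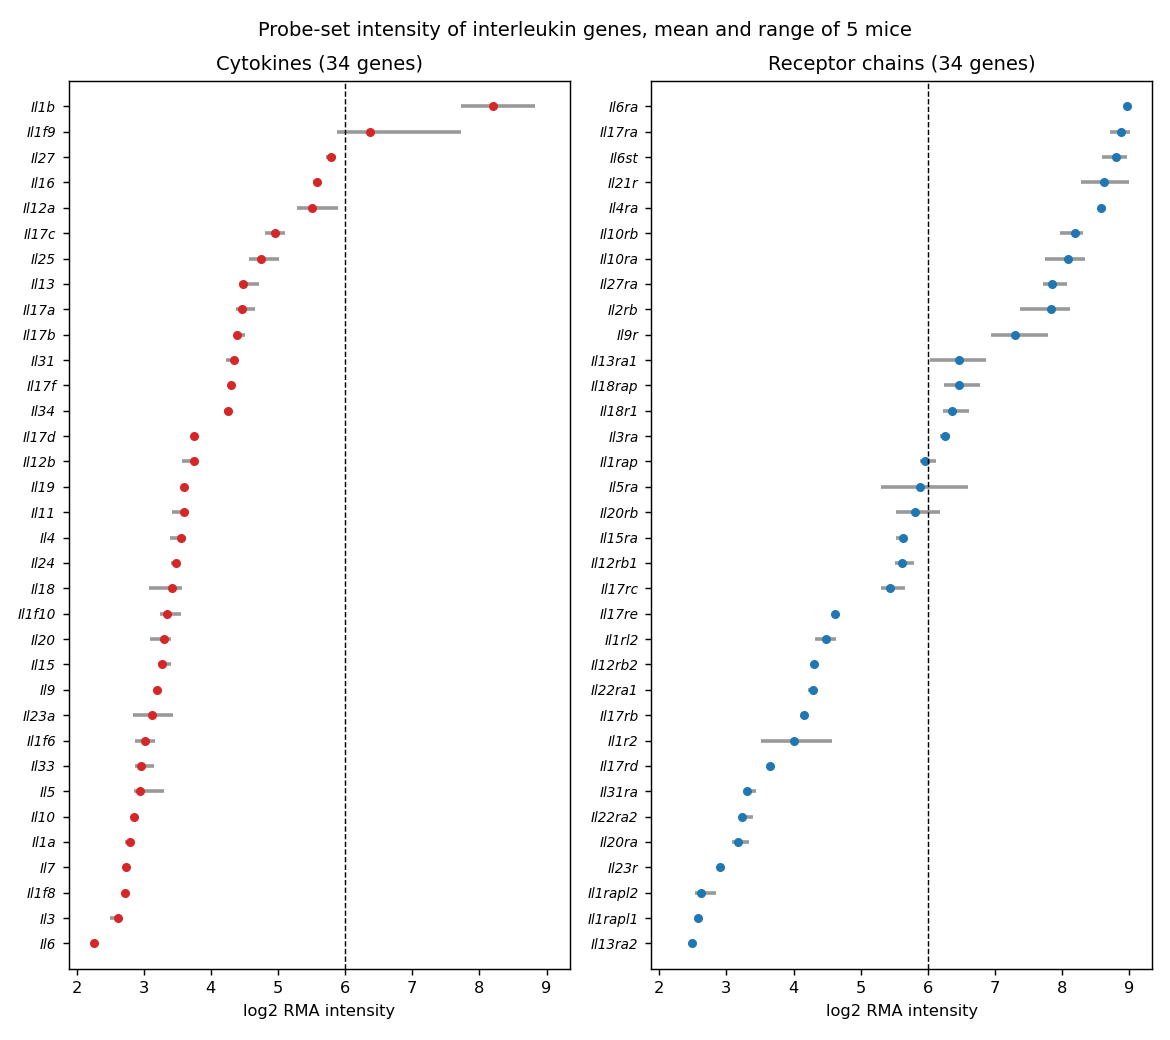
Mean log2 RMA intensity (points) and range over the 5 mice (bars) of each of the 34 cytokine genes and the 34 receptor chain genes, with a dashed line at the level of 6. Il1b and Il1f9 are the cytokines past the line, and 14 receptor chains are past it.

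Other families of ligands and receptors were counted in the same way, also by numbered symbols. Of 34 chemokine ligand genes 6 were past a log2 of 6 (17.6%), and of 18 chemokine receptor genes 10 were (55.6%). Among TNF superfamily genes with a numbered Tnfsf or Tnfrsf symbol, the counts were 1 of 9 ligands (11.1%) and 10 of 20 receptors (50%). Superfamily genes with other names, such as Tnf, were not counted. Ligands thus had the smaller share in each of these sets of symbols, and their shares were not tested against those of the interleukins.

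Il1b and Il1f9 were the cytokines past the level. Il1b encodes IL-1 beta, the inflammatory cytokine that caspase-1 matures, and Il1f9 encodes the cytokine now called IL-36 gamma. Il1b had a log2 intensity of 8.01, 7.72, 8.82, 7.78 and 8.71 in mice 1 to 5. Mice 3 and 5 were high and the other 3 lower, a ratio of 2.15 between the highest and the lowest mouse. Il1f9 read 6.06, 5.95, 7.72, 5.87 and 6.25 in mice 1 to 5. Mouse 3 stood alone, 3.60 times as bright as the lowest mouse, and the mean of the other 4 mice was 6.03, close to the level of 6.

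These were also the members past the level that varied most between mice. The SD over the 5 mice was 0.77 for Il1f9 and 0.52 for Il1b, and 0.363% and 1.53% of the 6603 genes tested had a larger one. Receptor chains past the level had SDs between 0.0071 and 0.31 with a median of 0.15, against a median of 0.11 over all genes tested. An SD above that median was found in 13 of the 16 members past the level, where 50% of genes have one by definition. Of genes past the level it was also found in all 6 chemokine ligands, all 10 chemokine receptors, the 1 TNF ligand and 7 of 10 TNF receptors. A value repeated on at least 3 arrays was found in 25% of the 16 members and in 38.2% of all genes tested. Without mouse 3 the median SD of the cytokines past the level fell from 0.64 to 0.31.

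Markers of neutrophils, cells known to make IL-1 beta when activated, differed between the mice in a similar order. The mean log2 level of 9 neutrophil markers, all measured and 5 of them past a mean of 6, was 6.31, 5.93, 7.51, 5.68 and 6.74 in mice 1 to 5. The order of the mice from high to low was 3, 5, 1, 2, 4 for this list and for Il1f9, and 3, 5, 1, 4, 2 for Il1b. The part of neutrophils in these values was not tested. Il1r2, the decoy receptor that neutrophils carry, peaked in mouse 3 at low signal, with 4.58 there. It read 3.51, 4.09, 4.09 and 3.79 in mice 1, 2, 4 and 5, an order that differed from that of the neutrophil markers. Il1rn, the IL-1 receptor antagonist, peaked in mouse 3, with 5.82 there and 5.25 to 5.40 elsewhere. Other members under the level were highest in mouse 3 too, such as Il13, Il5 and Il17a.

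The partner cytokine of Il1b was dim. Il1a, which encodes IL-1 alpha and lies next to Il1b in the RefSeq gene order with no protein-coding gene between them, had a mean log2 of 2.79 ± 0.051 (SD, n = 5). Il1f9 lies in a run of 6 neighbouring members, Il1f8, Il1f9, Il1f6, Il1f5, Il1f10 and Il1rn, of which it was the 1 past the level. The others had means from 2.72 for Il1f8 to 5.45 for Il1rn. The windows around the start sites of Il1b, Il1a and Il1f9 are shown because the neighbours Il1a and Il1b differed in signal and because Il1b and Il1f9 shared their highest mouse. They run from 250 bases before to 50 bases after the start and are RefSeq reference sequence of GRCm38.p6, not sequence of NOD mice. Capitals mark the TATA box letters TATAAA and the letters GAGGAA, each searched on both strands, with no overlap between the matches. GAGGAA is a longer form of the GGAA core bound by ETS factors such as PU.1. The core GGAA by itself was not searched, and the Il1b window holds it among other letters. These genes were chosen after their values were seen.
Il1b, chr2:129371090-129371389, minus strand: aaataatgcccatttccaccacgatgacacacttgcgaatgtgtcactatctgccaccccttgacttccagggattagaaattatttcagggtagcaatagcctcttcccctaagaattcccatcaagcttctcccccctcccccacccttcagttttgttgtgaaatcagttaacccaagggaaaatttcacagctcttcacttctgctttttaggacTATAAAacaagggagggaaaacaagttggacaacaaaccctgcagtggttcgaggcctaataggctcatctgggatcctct
Il1a, chr2:129309923-129310222, minus strand: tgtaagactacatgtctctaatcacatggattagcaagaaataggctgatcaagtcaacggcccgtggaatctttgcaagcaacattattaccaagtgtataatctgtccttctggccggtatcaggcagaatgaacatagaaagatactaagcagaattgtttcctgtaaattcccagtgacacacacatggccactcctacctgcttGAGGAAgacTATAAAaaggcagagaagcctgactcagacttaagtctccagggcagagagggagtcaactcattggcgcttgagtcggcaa
Il1f9, chr2:24186226-24186525, plus strand: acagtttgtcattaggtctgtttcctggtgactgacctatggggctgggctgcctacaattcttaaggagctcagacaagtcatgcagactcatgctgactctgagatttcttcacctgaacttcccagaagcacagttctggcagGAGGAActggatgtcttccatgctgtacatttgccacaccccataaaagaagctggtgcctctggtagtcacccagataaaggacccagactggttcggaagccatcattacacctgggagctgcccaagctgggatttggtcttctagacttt

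Il1b and Il1a both hold TATAAA, at positions -31 to -26 and -32 to -27 from the start. Il1a and Il1f9 hold GAGGAA, at positions -41 to -36 and -104 to -99. A dim and a bright gene thus share the TATA box letters. Among all 32851 windows of 300 bases, 13.6% held TATAAA and 28.3% held GAGGAA. Windows were found for 55 of the 72 members. TATAAA was in 8 of 24 cytokine genes (33.3%) and in 2 of 27 receptor chain genes (7.41%), or 30% and 6.67% of their 30 windows each. GAGGAA was in 36.7% of the windows of both roles. A match describes the letters and not a working site.

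The other 32 cytokine genes lay under the level. The nearest were Il27, a subunit of IL-27, at a mean log2 of 5.79 and Il16, a chemoattractant of CD4+ cells, at 5.58, followed by Il12a, the p35 subunit of IL-12, at 5.50. Il12a peaked in mouse 5, with 5.90 there and 5.29 to 5.51 elsewhere. The hallmark cytokines of helper T cells were dim, with Il17a at 4.47, Il13 at 4.48, Il4 at 3.56 and Il5 at 2.95. Il10, which restrains inflammation, had a mean of 2.85, and Il6, a product of activated myeloid and stromal cells, had the lowest mean of all members, 2.27. Il18, Il15, Il7, Il33 and Il34, which tissue cells and myeloid cells make, had means between 2.73 and 4.26. A dim probe set sets no limit on the RNA present. Of the 56 members under the level, 37 (66.1%) repeated a value on at least 3 arrays and 8 repeated it on all 5, so their spread says little about the mice. Such repeats were as common elsewhere, on at least 3 arrays in 69.2% of all genes under the level. A value equal on all 5 arrays was found in 1801 of all 19938 genes.

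Some members lie side by side in the genome. The neighbours Il4, Il13 and Il5 were all under the level, as were Il24, Il20, Il19 and Il10, and Il17a and Il17f. The receptor genes Il18r1 and Il18rap, close to Il1rl2 and Il1r2, were both past it while the latter were not. Il4ra and Il21r, also neighbours, had means of 8.58 and 8.62. Il6st was at 8.80 and its neighbour Il31ra at 3.31. Of 11 such runs of members, 2 or more genes with at most 2 other protein-coding genes between them, 6 held no member past the level and 5 at least 1. Of all 72 members 56 were under the level, and whether position bears on signal was not tested.

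Of the 4 receptor chains of the IL-6 and gp130 group, 3 were past the level. Il6ra varied little between mice, while the SDs of Il6st, 0.16, and Il27ra, 0.14, were above the median of 0.11 over all genes tested. Il6ra, the IL-6 binding chain, read 8.97 in mouse 1 and 8.96 in each other mouse, an SD of 0.0071 that was undercut by 4.97% of genes tested. Its value was equal on 3 arrays. Il6st, the gp130 signalling chain, read 8.60, 8.94, 8.68, 8.82 and 8.97 in mice 1 to 5, lowest in mouse 1. Il27ra, the IL-27 receptor chain of lymphocytes, read 7.72, 8.08, 7.87, 7.87 and 7.74, highest in mouse 2. Il31ra was the 1 chain of this group of 4 under the level.

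Chains of the common gamma chain family and of the IL-13 receptors, counted together, were past the level in 5 of 7 cases. Il4ra, the IL-4 receptor alpha chain, read 8.57, 8.56, 8.57, 8.65 and 8.57 in mice 1 to 5, with equal values on 3 arrays. Il21r, the IL-21 receptor, read 8.59, 8.78, 8.46, 8.99 and 8.28, highest in mouse 4 and lowest in mouse 5. Il2rb, the beta chain through which T and NK cells receive IL-15, read 7.37, 8.11, 7.89, 7.89 and 7.89. Mouse 1 was the low one. Il9r, the IL-9 receptor, read 7.29, 6.94, 7.32, 7.18 and 7.80, highest in mouse 5. Il13ra1, which joins Il4ra in the type II receptor of IL-4 and IL-13, read 6.86, 6.04, 6.48, 6.49 and 6.43, with mice 1 and 2 at the ends. Il15ra, at 5.64, and Il13ra2, a decoy for IL-13, at 2.49, were under the level.

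The remaining chains past the level belonged to other families. Il17ra, the shared chain of IL-17 receptors, read 8.93, 8.88, 9.01, 8.71 and 8.88 in mice 1 to 5, while its partners Il17rb, Il17rc, Il17rd and Il17re had means between 3.66 and 5.43. Il10ra, the IL-10 binding chain, read 8.35, 7.74, 8.07, 8.16 and 8.16, lowest in mouse 2. Il10rb read 8.18, 7.97, 8.19, 8.31 and 8.30, also lowest in mouse 2. Il18rap and Il18r1, the chains of the IL-18 receptor on T and NK cells, were both highest in mouse 5. Il18rap read 6.24, 6.46, 6.47, 6.34 and 6.78, and Il18r1 read 6.32 in each of mice 1, 2 and 3, 6.23 in mouse 4 and 6.61 in mouse 5. Il3ra, the IL-3 receptor alpha chain, read 6.19, 6.24, 6.25, 6.34 and 6.25.

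Some members lay close to the level. Il3ra, with a mean of 6.25, was the lowest member past it. Just under it were Il1rap, the accessory chain of IL-1 family receptors, at 5.96, Il5ra at 5.89, Il20rb at 5.80 and Il27 at 5.79. Il5ra, the IL-5 receptor alpha chain of eosinophils and B-1 cells, read 6.43, 5.30, 5.50, 5.60 and 6.59 in mice 1 to 5. Mice 1 and 5 were high and the other 3 low, and its SD of 0.59 was the largest among receptor chains. The mean log2 level of 6 of 7 B cell markers was 9.66, 8.73, 8.92, 9.37 and 9.44 in mice 1 to 5, with mouse 1 highest and mouse 5 next. That of the 8 acinar markers measured was 7.01, 6.12, 6.45, 6.48 and 6.65, with the mice in the same order as for the B cell markers. Eosinophil markers, a list added after the values of Il5ra were seen, had a mean level between 3.92 and 4.01 over 5 genes, with none past the level. The part of B cells or of acinar cells in the values of Il5ra was not tested.

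**Figure D2:**
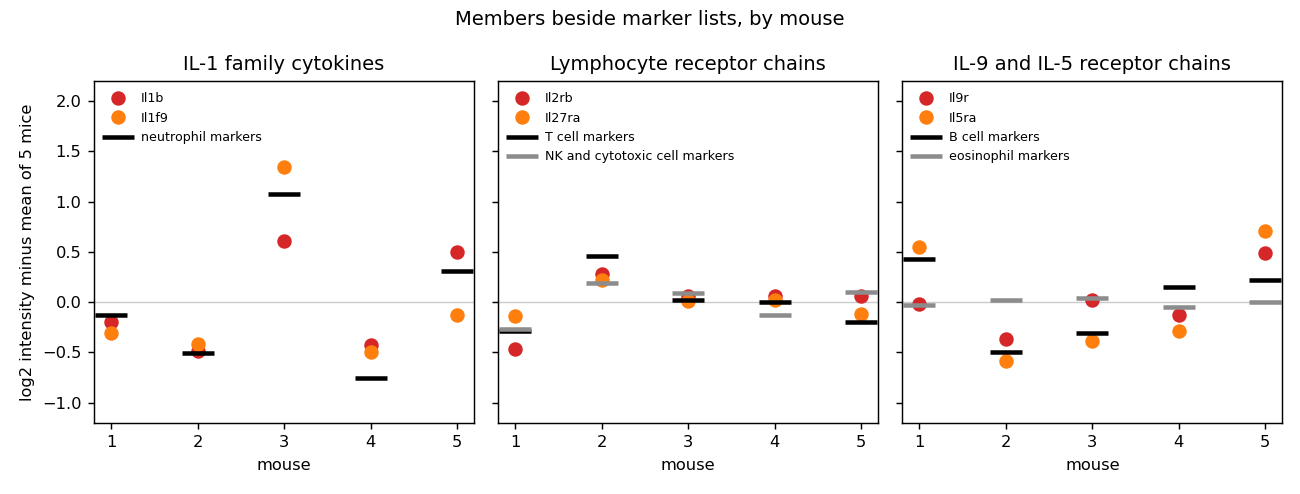
Log2 intensity of 6 members (points) and mean level of marker lists (bars) in each mouse, each minus its own mean over the 5 mice. Il1b, Il1f9 and the neutrophil markers are highest in mouse 3, Il2rb, Il27ra and the T cell markers in mouse 2, and Il5ra is highest in mice 1 and 5.

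Complexes were assembled from a list of 23 cytokine receptors and their chains. In 7 of them all chains were past the level, in 5 some were and in 5 none was, and 6 could not be judged because a chain such as Il1r1, Il1rl1, Il2rg or Il11ra1 had no probe set of its own name. The complete ones were those for IL-18, for IL-4 and IL-13 of type II, for IL-3, IL-6, IL-10 and IL-27, and Csf1r for IL-34. In none of these 7 was a ligand gene past the level. Il6ra and Il6st thus stood beside an Il6 mean of 2.27, Il10ra and Il10rb beside Il10 at 2.85, Il18r1 and Il18rap beside Il18 at 3.42, and Il27ra beside Il27 at 5.79. Ligand genes were past the level for 2 complexes. The IL-36 receptor, with Il1rl2 at 4.49 and Il1rap at 5.96, faced Il1f9, and the IL-1 receptor, with Il1rap, faced Il1b. Il12rb1, at 5.62, and its partners Il12rb2, at 4.31, and Il23r, at 2.91, all fell under the level.

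No member passed the test of a T2 slope. Over all 6603 genes with a mean log2 of at least 6, limma's moderated test called 0 genes at an adjusted p under 0.05 (0% of genes tested) and 349 at an unadjusted p under 0.05 (5.29%). Among the 16 members tested it called 0 at either threshold, and the lowest adjusted p of a member was 0.828. A slope below 0 was found in 10 of the 16 members (62.5%), against 67.9% of all genes tested. The median slope was -0.035 log2 per ms over the 2 cytokines and -0.015 over the 14 receptor chains, of which 9 were below 0, against -0.0074 over all genes tested. With arrays quantile normalized again the median of the receptor chains was -0.0047, and with mouse 1 or mouse 2 left out it was -0.0071. The median of the cytokines was 0.016 without mouse 2 and -0.099 without mouse 4.

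Slopes are in log2 units per ms and are followed by limma's moderated standard error, which also draws on the variances of the other genes fitted. A fold is the fitted intensity at the lowest T2 over that at the highest, 6.32 ms apart. Il10rb had the slope farthest from 0 relative to its error, -0.04 ± 0.014, a fold of 1.18 (95% interval 0.996 to 1.40). Il9r had -0.07 ± 0.041, a fold of 1.37 (0.832 to 2.26), and Il18rap -0.04 ± 0.029, a fold of 1.20 (0.845 to 1.71). Il3ra had -0.01 ± 0.0079, Il6st -0.03 ± 0.025 and Il18r1 -0.02 ± 0.023. Il2rb had -0.03 ± 0.047, Il10ra -0.02 ± 0.038 and Il4ra -0.0064 ± 0.0067. The intervals of these genes all include a fold of 1. The sign turned for Il18r1 without mouse 5, for Il2rb without mouse 1 and for Il10ra without mouse 2, at 0.017, 0.033 and 0.025, and for Il4ra with arrays quantile normalized again, at 0.0054.

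In the other direction the slopes were small. Il17ra had 0.02 ± 0.017, Il27ra 0.02 ± 0.024, Il21r 0.02 ± 0.048 and Il6ra 0.0014 ± 0.0036. Il13ra1 had 0.00012 ± 0.051 and Il1f9 0.0011 ± 0.13. The interval of Il6ra, from 0.951 to 1.04 as a fold, was the narrowest of the 16, and its equal values lower its error. That of Il1f9, from 0.190 to 5.20, was the widest, so a change of several times with T2 was not detectable for it with 5 arrays. The sign turned for Il21r without mouse 5, at -0.046, for Il27ra without mouse 2, at -0.0071, and for Il13ra1 and Il1f9 when single mice were left out. The slope of Il1b was -0.07 ± 0.084, which gives a fold of 1.37 (0.487 to 3.84).

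Members under the level entered a fit without a filter, over all 19938 genes. It called 0 genes at an adjusted p under 0.05 (limma) and 646 at the unadjusted threshold (3.24%), among them 1 of the 72 members. This was Il18bp, the secreted protein that binds and neutralises IL-18, and its adjusted p (limma) was 0.813. It read 5.60, 5.57, 5.57, 5.75 and 5.81 in mice 1 to 5, with the mice of lowest T2 above the other 3, and had a slope of -0.04 ± 0.0087. Il18, its ligand, was lowest in mouse 2, at 3.07, and lay between 3.47 and 3.56 in the others. Of the 56 members under the level, 6 ranged over more than 0.5 log2 between mice, namely Il5ra, Il1r2, Il20rb, Il12a, Il23a and Il1rn. Il20rb, a chain of the IL-20 receptors, had 3 probe sets with means of 4.73, 5.09 and 5.80, each under the level.

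**Figure D3:**
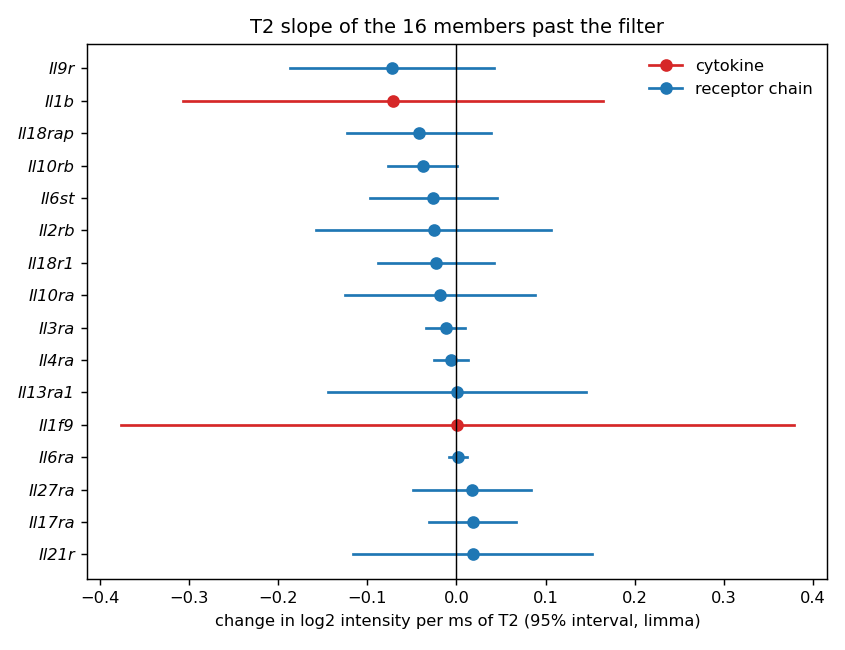
Slope of log2 intensity on T2 (points) with its 95% interval from limma (lines) for the 14 receptor chains and 2 cytokines past the level. Every interval includes 0, with that of Il10rb ending just past it and those of Il1b and Il1f9 the widest.

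Mice 1 and 2 had nearly the same T2 and differed in several members. Il13ra1 was 1.78 times as bright in mouse 1 as in mouse 2 and Il10ra 1.52 times. Il2rb was 1.68 times as bright in mouse 2 as in mouse 1, and Il27ra and Il6st were 1.28 and 1.27 times. In 8 of the 16 members (50%) this difference exceeded the fitted change over the whole T2 range, as it did in 44.6% of all genes tested. The mean log2 level of 7 of 8 T cell markers was 8.02 in mouse 1 and 8.76 in mouse 2, that of 8 NK and cytotoxic markers 5.58 and 6.03, and that of the B cell markers 9.66 and 8.73. The acinar list read 7.01 and 6.12 in the same mice. The part of these cells in the differences was not tested.

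**Figure D4:**
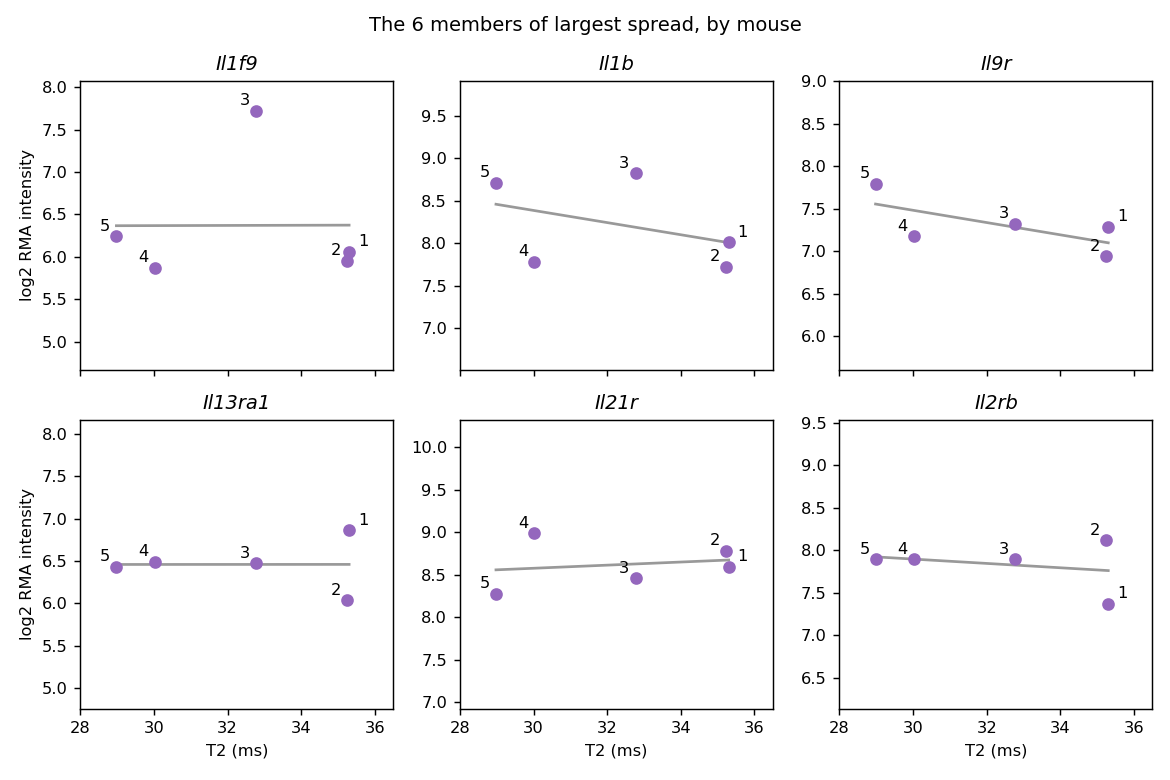
Log2 RMA intensity against T2 in ms for the 6 members past the level with the largest SD, 1 point for each numbered mouse, with the fitted line. Mouse 3 stands apart for Il1f9, mice 3 and 5 are high for Il1b, and mice 1 and 2, at the right of each panel, are far apart for Il13ra1 and Il2rb.

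Partners of interleukin receptors without an interleukin name were also followed, as a list of 22 kinases, adaptors, shared chains and inflammasome genes. Of these 20 were measured and 17 were past the level. None of the 17 passed the T2 test at an adjusted p (limma) or at the unadjusted threshold, 12 had a slope below 0 and 5 above it, and the median slope was -0.01. The lowest p values belonged to Sigirr, an inhibitory receptor of the IL-1 family, and Lifr, which pairs with gp130. The slope of Sigirr was 0.03, with its fold at 0.859 (0.702 to 1.05), and that of Lifr was -0.06, with its fold at 1.33 (0.838 to 2.10). Csf2rb, the beta chain shared by the IL-3 and IL-5 receptors, read 7.75, 7.43, 7.81 and 7.95 in mice 1, 2, 4 and 5 and was highest in mouse 3. Nlrp3, the sensor of the inflammasome that activates caspase-1, lay under the level at 5.56 and was highest in mouse 5, at 6.11, with mouse 3 next at 5.65. The other inflammasome genes of the list differed in order. Casp1, the gene of caspase-1, read 6.48, 6.06, 6.20, 6.30 and 6.39 in mice 1 to 5. Pycard read 6.89 in mouse 3 and 6.95 to 6.96 elsewhere. Markers of macrophages, which carry several of these chains, had a mean level of 7.51 and 7.64 in mice 1 and 2 and of 8.85 in mice 4 and 5, with a slope of -0.22 ± 0.021 over 10 genes. Single genes of this list had slopes from -0.066 for Cd68 and -0.071 for Csf1r to -0.449 for Vsig4. The slopes of Il9r and Il1b, both -0.072, lay inside that range. Mast cell markers had a list slope of -0.10 ± 0.033 over 7 genes, and dissociation stress markers had -0.12 ± 0.022 over 8 genes. For these lists the error is the least-squares error of the list mean, not a moderated one. None of these list slopes was matched in size by any of the 16 members, and whether these cells or this stress moved a member was not tested.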

How the data were processed

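TriZol RNA of each mouse was labelled with biotin and run on 1 array, per the labels' protocols. The deposited values were linear probe-set intensities. Per the submitters' processing notes, the authors used Affymetrix Power Tools and RMA; no version or build is named there. RMA subtracts background, quantile normalizes arrays and summarizes each probe set by median polish.

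Values were taken to log2, and genes were named by GEO's annotation of the platform; each of the 72 members matched a RefSeq gene of GRCm38.p6. Probe sets listing several symbols were left unnamed, and for the 3 members with several probe sets the brightest was used. Genes with a mean log2 of at least 6 were fitted on T2 (limma 3.58.1, R 4.3.3, lmFit and eBayes, two-sided, Benjamini-Hochberg threshold 0.05, residual df 3). Dimmer members have least-squares slopes. The number of arrays, 5, limits the precision. The fit was tested on simulated data with slopes steeper than that of any member. That test does not tell how well slopes of the members' size are found. Named with values by mouse were the 6 members of lowest p in each direction, the 6 of largest SD, and cytokines and complete complexes past 6. Members, roles and lists were chosen with earlier results of these data known. The labels name separate mice and no batch. Alternatives covered filters, normalization, probe sets, T2 ranks, variance models, array weights, equal values and each mouse left out.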

Additional observations from a re-analysis of the deposited data

Results flagged for a closer look

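The distance of the most extreme mouse to the next one, divided by the full range of the 5 mice (the gap share), was computed for 24 genes and 19 lists or medians. For independent, normally distributed values, chance alone passes the critical value of 0.71 in about 1 of 20. It was passed by 7 of these 43. Equal values on several arrays and genes shared between items break that condition, and the share over all genes was not counted. Whether 7 is more than chance gives thus cannot be told. Il1f9 was high in mouse 3, with 7.72 there and 5.87 to 6.25 elsewhere (0.798). Il18r1 was high in mouse 5, at 6.61 against 6.23 to 6.32 (0.747), and Lifr low in mouse 2, at 6.31 against 6.88 to 7.05 (0.762). Both Il18r1 and Lifr had equal values on 3 arrays, which narrows the spread of the other mice. Il6ra was high in mouse 1 (0.854) and Il4ra in mouse 4 (0.946). These genes moved by a range of 0.018 and 0.088 log2 in all and likewise had equal values on 3 arrays. The mean log2 level of regulatory T cell markers was high in mouse 2, at 6.66 against 6.24 to 6.35 (0.73), and that of islet endocrine markers low in mouse 5, at 3.78 against 3.89 to 3.93 (0.748).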

How the results depend on the processing

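No paired analysis was possible because the mice form 1 group. No member passed the adjusted threshold under any of the 17 alternatives, where the lowest adjusted p (limma) lay between 0.431, with array weights, and 0.949. Genes outside the members did pass, 35 of 4079 tested without genes of equal values and 4 of 6604 with renormalized arrays. With array weights 4 of 6603 passed, at a level of 7 it was 3 of 3563, and at a threshold of 0.10 it was 3 of 6603. The other alternatives called no gene. At an unadjusted p under 0.05 (limma) there were 0 to 4 members with 1 mouse left out. The share of all genes at that threshold was not counted in these fits, so this number is not a result about the members. A level of 5 in place of 6 gave shares of 14.7% for cytokines and 58.8% for receptor chains, and a level of 7 gave 2.94% and 29.4%. With 1 mouse left out the shares were 5.88% throughout and 41.2% to 44.1%. The median SD of cytokines was 0.23 at a level of 5 and 0.31 to 0.73 with 1 mouse left out. The median slope of receptor chains was -0.012 at a level of 7, -0.0047 with renormalized arrays, -0.0097 on ranks of T2 and -0.015 to -0.0071 with 1 mouse left out. Of 24 named genes, 12 kept the sign of their slope in every alternative run and 12 did not, in 23 of 291 values, and the cause was not tested. On ranks of T2 the slope of Il1f9 was -0.018. With renormalized arrays that of Il27 was 0.0019 and that of Il4ra 0.0054. With array weights Il21r had -0.024, Il2rb 0.0022, Il13ra1 -0.037 and Il18r1 0.0036. With 1 mouse left out the slopes ranged from -0.064 to 0.025 for Il10ra, from -0.060 to 0.061 for Il13ra1, from -0.045 to 0.017 for Il18r1, from -0.056 to 0.061 for Il1f9, from -0.031 to 0.0058 for Il1rap, from -0.049 to 0.021 for Il20rb, from -0.046 to 0.066 for Il21r, from -0.0088 to 0.0031 for Il27, from -0.0071 to 0.045 for Il27ra, from -0.076 to 0.033 for Il2rb and from -0.16 to 0.060 for Il5ra. Low signal limits the 56 members under 6.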
